A study of Equus caballus with 16 samples.

Results

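The horse miRNAs with the numbers miR-8900 to miR-9199 were described in extracellular vesicles (EVs) of follicular fluid (FF). They were chosen by name alone, as every listed miRNA with a number in this range and any letter or arm suffix. The range held 293 of the 686 listed miRNAs (42.7%), and only 17 of the 293 had a read in any library. The other 393 listed miRNAs, let-7 and the numbers below 8900, served as the comparison.

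MiRNAs are short RNAs that guide a silencing complex to messenger RNAs, which they recognise mainly through the seed near their 5′ end, so miRNAs with a common seed form a family with overlapping targets. FF bathes the oocyte, and EVs released into it by follicle cells are small membrane particles that carry miRNAs between cells. A miRNA number follows the order in which sequences were registered in miRBase, a letter marks closely related sequences, and an arm suffix tells which arm of the hairpin a sequence comes from. The widely conserved families were registered early and carry low numbers. The high-numbered miRNAs are known from the horse, and since no other species was measured, whether they are specific to it was not tested. The sources give no target or function for any of them, so they are described by sequence, level and occurrence.

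Small RNA was sequenced in 16 libraries, 4 for each of the seasons SAN (spring anovulatory, March), SOV (spring ovulatory, April to May), SUM (summer, June to July) and FOV (fall ovulatory, September). All fluid came from growing follicles of 30 to 35 mm in mares of a single breed, aged 8 to 14 years and kept under natural light. The labels set the groups apart by season alone. The study checked the vesicles by marker proteins, which were not analysed here, and miRNA levels do not identify a vesicle. Fluids of 2 to 3 mares were combined per library, so a library is a pool, and a mare may have given fluid in more than 1 season. The study left FOV_1 out of its comparisons because that library lay near the SAN libraries, so it is left out of the tests and kept in the counts and levels unless stated.

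Levels are given in TMM-adjusted CPM, that is, read counts scaled to the size of their library after trimming extreme miRNAs from the scaling. The reads behind every value were recovered as whole numbers. Libraries held 27131 to 112146 reads assigned to miRNAs, 985463 in all, so that 1 read was worth 7.91 to 35.6 CPM. In 13 of the 16 libraries 1 read was worth more than 10 CPM, the level above which a season mean counted as expressed. Intervals are exact 95% Clopper-Pearson intervals. Intervals and limits cover counting error only, since PCR copies of a molecule were not marked.

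The season comparisons turned on the 10 members whose mean exceeded 10 CPM in some season. Their mature sequences are shown because the seed decides the family to which a miRNA belongs. They were taken from a supplementary table of the study, are written 5′ to 3′ with T for U, and carry the seed (bases 2 to 8) in capitals.
miR-8986a: tAGTGTGCtagagtcctcgaagag
miR-8986b: tGGTGTGCtagagtcctcggaga
miR-9021: cTGCTGCCgagagttgttcactgt
miR-8917: cTTGCCCTtcttcctctgacctt
miR-8908j: cTACCCGGaaggtactgatcaccta
miR-9177: gAGCAGTGggtgcagacaggc
miR-9151: tGCCGGCTgtgcagtgggagctgg
miR-9156: tCTAGGGCgcctgtgaagatggt
miR-8914: tTTGAGCTgtgttggttgtcacg
miR-8985: tACTTTTTggtctgagtgcgtcc

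None of these 10 seeds was shared with another of the 282 miRNAs that had a sequence. Among the 272 other miRNAs with a sequence, 98 (36.0%) shared their 7-base seed with at least 1 miRNA of the list. Over the whole sequence, the nearest miRNA of the other classes lay 7 to 10 single-base edits from a member, with a median of 9. Counting members as neighbours too, the median was 8.5, and 2 of 10, miR-8986a and miR-8986b, had a neighbour within 5 edits. Among themselves the other 272 miRNAs had a median of 7.5 edits to the nearest, and 103 (37.9%) had a neighbour within 5 edits. The closest case was miR-8917, at 7 edits from miR-328, and the farthest were miR-8908j, at 10 edits from miR-490-3p, and miR-8986a, at 10 edits from miR-106b.

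The members were also slightly long. Lengths ran from 21 to 25 bases with a median of 23, against 22 in the other miRNAs, and 9 of 10 members had at least 23 bases, against 73 of 272 others (26.8%). The median GC content was 53.2% in members, with a range of 47.8% to 70.8%, and 47.6% in the other miRNAs. A T at the 5′ end was found in 6 of 10 members and in 149 of 272 others (54.8%). These shares describe the miRNAs expressed here and were not tested.

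Among the 10 members with a sequence, the only ones that could be compared, miR-8986a and miR-8986b were the only close pair. With positions counted from 1 at the 5′ end and the base of miR-8986a given first, they differed by A2G, which lies in the seed, and by A20G, at 2 of 23 aligned positions, and miR-8986a had 1 more base at its 3′ end. How reads that fit both were shared out by the authors' counting is not given in the sources used here, so the split of the 57 reads between them is uncertain.

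The names ran without a gap from miR-8908 to miR-9185, which made 278 consecutive numbers. MiR-8908 was listed with 14 letters, and miR-8986 and miR-9058 with 2 letters each. No member carried an arm suffix, whereas 100 of the 393 other miRNAs did (25.4%).

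Few of the listed members were detected. Over all 16 libraries 17 of 293 members had at least 1 read (5.80%), against 307 of 393 other miRNAs (78.1%). Among those others, the share was 36.2% for the miRNAs numbered from 1000 up to the start of the range (21 of 58) and 85.4% for let-7 and the numbers below 1000 (286 of 335). The remaining 276 members had 0 of 985463 reads, which allows each a share of up to 0.000304% of the reads, or 3.06 CPM over all libraries.

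Detection was low in every season. SAN libraries had reads of 9 members (3.07%), SOV libraries of 4 (1.37%), SUM libraries of 10 (3.41%) and FOV libraries of 10 (3.41%), or 8 without FOV_1. Of the other miRNAs, SAN libraries had reads of 259 (65.9%), SOV libraries of 252 (64.1%), SUM libraries of 276 (70.2%) and FOV libraries of 274 (69.7%). SOV was the lowest season in both classes, with fewer than 5 members detected. It also had the fewest reads, 190371, against 232398 in SAN, 254915 in FOV and 307779 in SUM.

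Season means above 10 CPM were reached by 5 members in SAN (1.71%), 1 member in SOV (0.341%), 6 members in SUM (2.05%) and 4 members in FOV (1.37%). The FOV count was the same without FOV_1, while the SAN count was 2 without SAN_3 and the SOV count 0 without SOV_2. In all, 10 members passed 10 CPM in at least 1 season (3.41%) and 0 in all 4 seasons. For the other miRNAs the SAN count was 233 (59.3%), the SOV count 227 (57.8%), the SUM count 229 (58.3%) and the FOV count 246 (62.6%), while 271 passed in at least 1 season (69.0%) and 201 in all 4.

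**Figure D1:**
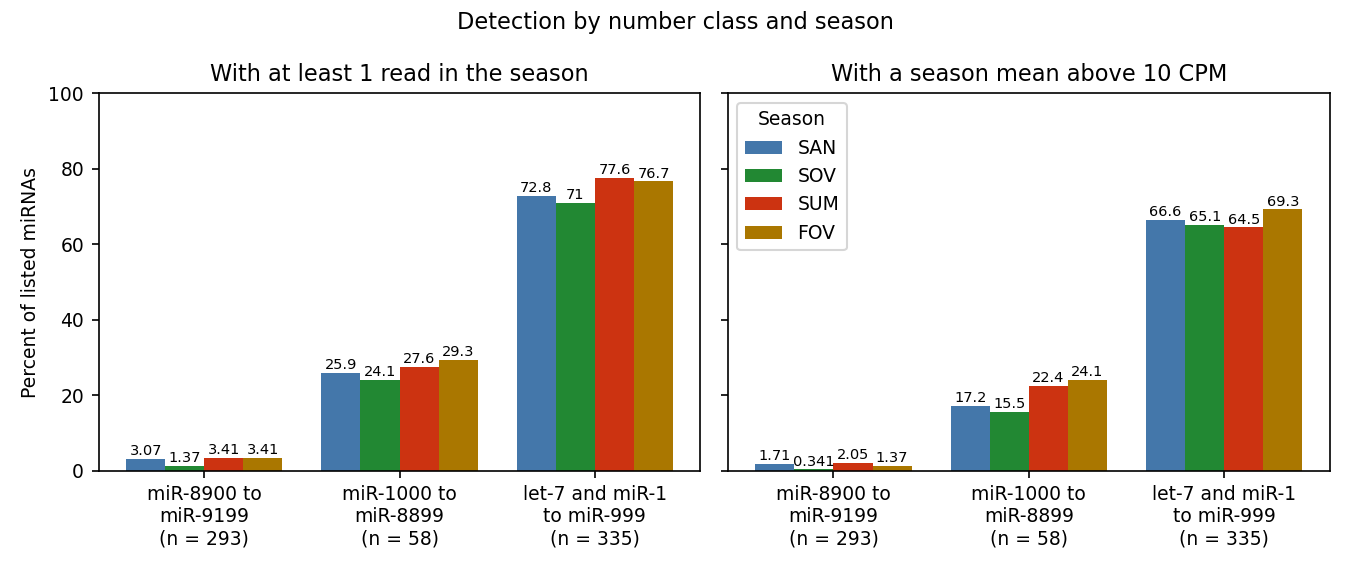
Percent of listed miRNAs with at least 1 read in a season (left) and with a season mean above 10 CPM (right), for the high-numbered miRNAs (n = 293), those from miR-1000 up to that range (n = 58) and let-7 with the numbers below 1000 (n = 335), with 1 bar per season over 4 libraries each. The high-numbered bars lie between 1.37% and 3.41% on the left and between 0.341% and 2.05% on the right, below every bar of the other classes.

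The counts above 10 CPM rested on few reads. The members above the limit had 3 to 11 reads in SAN, 3 reads in SOV, 3 to 21 reads in SUM and 5 to 14 reads in FOV. Of the 16 season means of members above 10 CPM, 7 came from a single library and 6 from fewer than 5 reads. Among the 935 season means of other miRNAs above 10 CPM, 31 came from a single library (3.32%).

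The values nearest the limit rested on 3 or 4 reads. Just inside it were miR-8914 in SAN with 12.3 CPM from 4 reads, miR-9021 in SOV with 13.4 CPM from 3 reads and miR-9177 in SAN with 13.6 CPM from 3 reads. Just outside it were miR-8941 in SAN with 9.20 CPM, miR-8995 in SUM with 7.44 CPM and miR-9159 in SUM with 6.93 CPM, each from 3 reads. The same 3 reads fell on either side of 10 CPM depending on the library that held them.

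All members together had 153 of the 985463 reads, which is 0.0155% (95% interval 0.0132 to 0.0182). Their share of the signal of a library averaged 0.0132% ± 0.0115 (SD, n = 16) and ranged from 0 to 0.0358%. A detected member had a median of 5 reads in 2 libraries, and a detected miRNA of the other classes had a median of 82 reads in 14 libraries. The highest season mean of a member was 56.1 CPM, for miR-8986a in SUM, against 217751 CPM for the highest of the other miRNAs.

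The reads were concentrated in few members. MiR-8986a (40 reads) and miR-9021 (31 reads) held 46.4% of the member reads, 4 members had at least 10 reads and 10 had 5 or fewer. Ranked by mean CPM among the 324 detected miRNAs, miR-8986a stood at 200, miR-9021 at 216 and miR-8908j at 240. The other miRNAs reached down to the same levels, since 120 of the detected ones (39.1%) had no more than the 40 reads of miR-8986a.

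Detected members were found along the whole range of numbers, with 10 of the 106 members of the lowest numbers, 3 of the next 101 and 4 of the last 86. Of the 14 letters of miR-8908 only miR-8908j had reads, and of the pair miR-8986a and miR-8986b both had. Across the seasons 9 members were found in 1 season only, and only miR-8986a and miR-8986b in all 4. By library 7 members were seen in 1 library and 5 in at least 4.

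**Figure D2:**
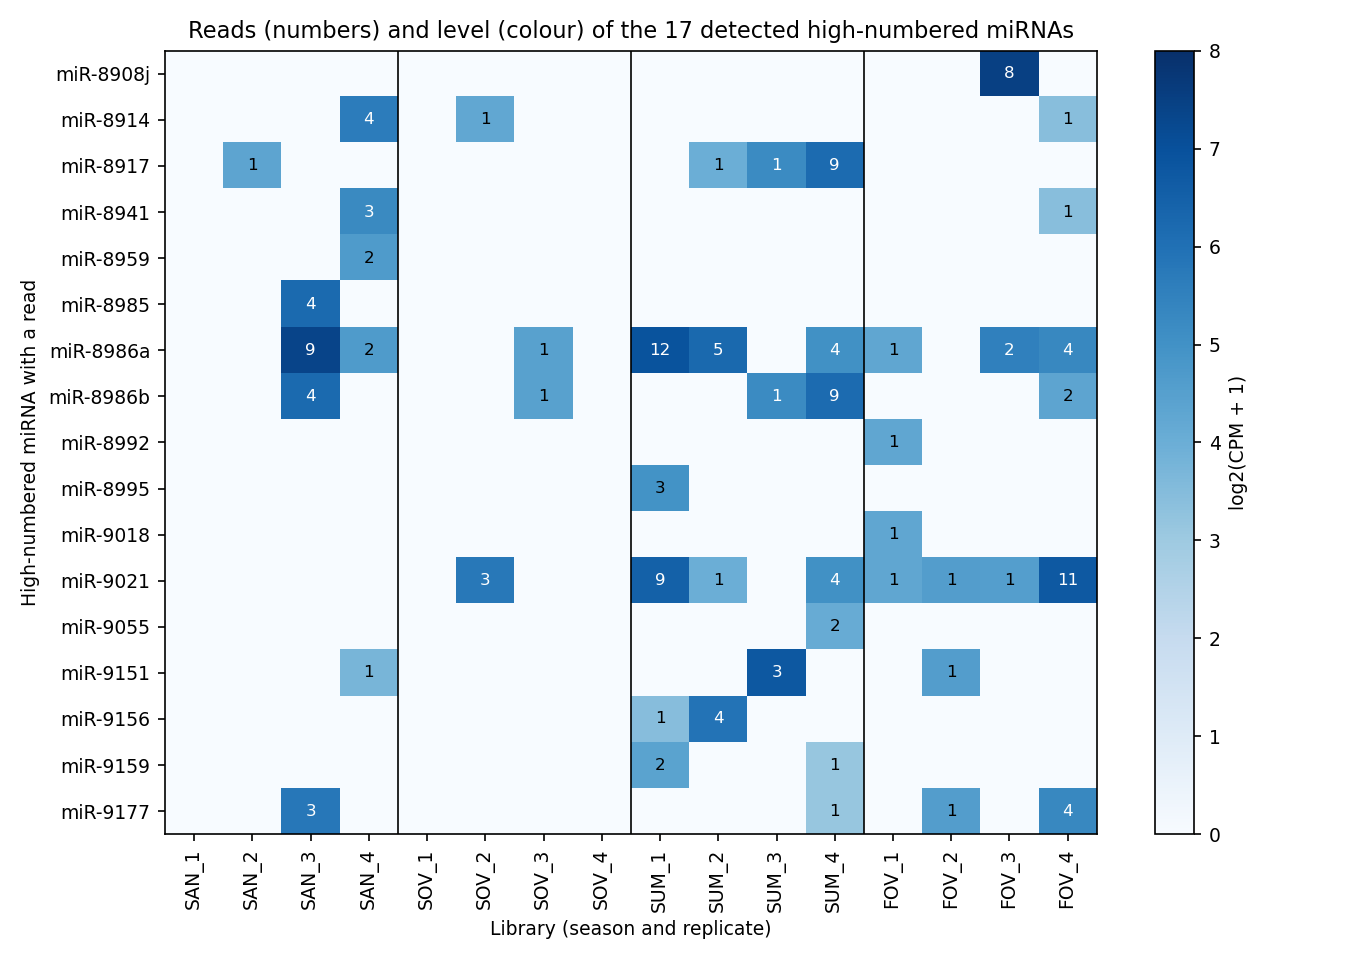
The 17 detected high-numbered miRNAs (rows) in the 16 libraries (columns, ordered by season). The colour gives log2(CPM + 1) and the printed number the reads, with empty cells at 0. Most cells are empty, miR-8986a fills 9 libraries and miR-9021 fills 8, and the columns SAN_1, SOV_1 and SOV_4 are empty.

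To compare miRNAs at a like depth, those with 5 to 20 reads in all were set side by side, a range chosen after the values were seen. The 7 members in it had a median of 8 reads in 3 libraries, and the 50 other miRNAs a median of 10 reads in 4 libraries. The library with the most reads held a median of 66.7% of the reads of a member and 39.4% of those of another miRNA. Most of the reads came from 1 library for 6 of 7 members and for 10 of 50 others (20%). Within this range members were the more uneven between libraries, with no test of that difference.

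The number of members per library moved with depth. SUM_4, FOV_4, SUM_1 and SAN_4, the 4 deepest libraries with 94216 to 112146 reads, had 7, 6, 5 and 5 members. The 12 other libraries had 0 to 4. SAN_1, SOV_1 and SOV_4, with 36328, 41224 and 48306 reads, had 0 members, which allows shares of up to 0.00826%, 0.00728% and 0.00621% of their reads. The shallowest library, SUM_3 with 27131 reads, still had 3 members.

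When every library was thinned to 27131 reads, the expected number of members was 0 to 3.72 per SAN library, 0 to 1.36 per SOV library, 2.65 to 4.12 per SUM library and 1.75 to 3.20 per FOV library. Before thinning the counts were 0 to 5 for SAN, 0 to 2 for SOV, 3 to 7 for SUM and 3 to 6 for FOV. The range of the SUM libraries lay above that of the SOV libraries with and without thinning.

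**Figure D3:**
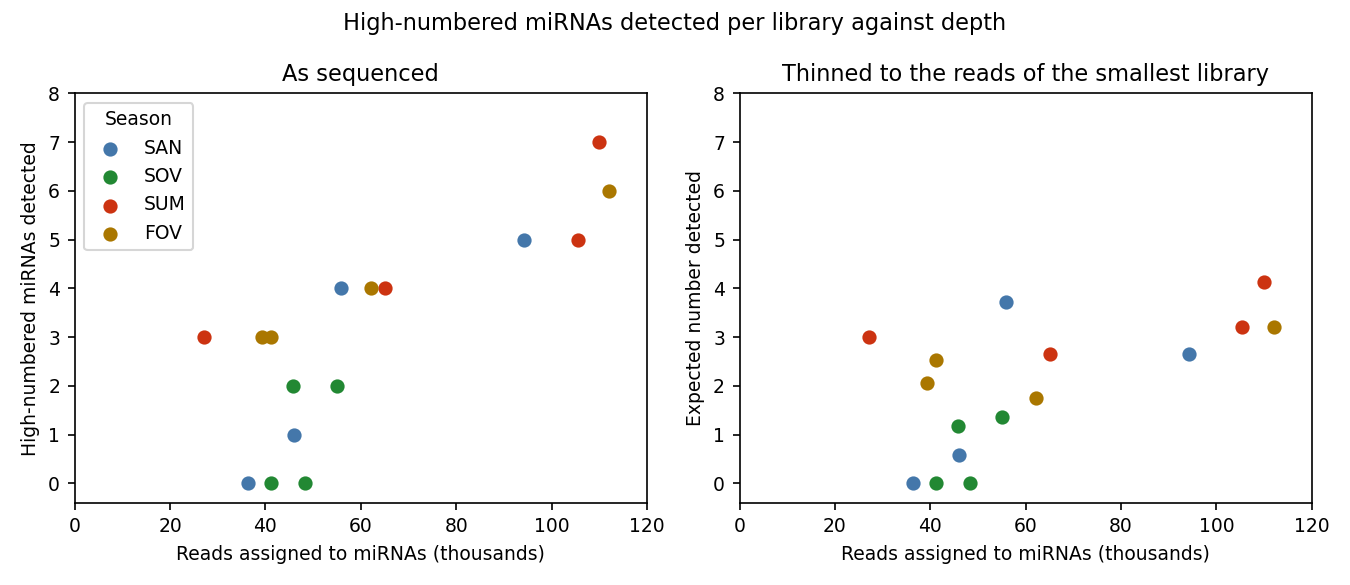
Number of high-numbered miRNAs detected in each of the 16 libraries against its reads assigned to miRNAs in units of 1000, as sequenced (left) and as the number expected after thinning to 27131 reads (right), coloured by season. On the left the 4 deepest libraries have 5 to 7 members, and on the right no library exceeds 4.12 while the 4 SOV libraries stay at or below 1.36.

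The summed level of the members was lowest in SOV and highest in SUM, a description with no test. It averaged 132 ± 167 CPM in SAN, 28.3 ± 34.9 CPM in SOV, 211 ± 49.4 CPM in SUM and 152 ± 94.7 CPM in FOV (SD, n = 4 each). Every SUM library (163 to 268 CPM) lay above every SOV library (0 to 71.6 CPM). The SAN libraries spanned 0 to 363 CPM, a range that took in those of the 3 other seasons.

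Members took 33 reads in SAN (0.0142%, 95% interval 0.00977 to 0.0199), 6 reads in SOV (0.00315%, 0.00116 to 0.00686), 73 reads in SUM (0.0237%, 0.0186 to 0.0298) and 41 reads in FOV (0.0161%, 0.0115 to 0.0218). Without FOV_1 the FOV share was 0.0192%. The SOV interval lay below that of each other season, for counting error within the sequenced libraries only. Its distance from SAN rested on SAN_3, which held 20 of the 33 SAN reads. Without that library the SAN share was 0.00736% (0.00392 to 0.0126), which overlaps the SOV interval, and without SOV_2 the SOV share was 0.00148% (0.000179 to 0.00534). In FF-EVs, fewer vesicles from a source and fewer copies per vesicle cannot be told apart.

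MiR-8986a was the most abundant member. Its CPM was 0, 0, 164 and 24.5 in SAN_1 to SAN_4, and 0, 0, 20.8 and 0 in SOV_1 to SOV_4. In SUM_1 to SUM_4 it was 119, 73.9, 0 and 31.6, and in FOV_1 to FOV_4 it was 18.3, 0, 44.6 and 38.6. It was present in 3 of 4 libraries in SUM and FOV and in 1 of 4 in SOV, and every season had a library at 0, so the groups overlapped.

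The related miR-8986b had 72.7 CPM in SAN_3, 20.8 CPM in SOV_3, 35.6 CPM in SUM_3, 71.2 CPM in SUM_4 and 19.3 CPM in FOV_4, with 0 elsewhere. Both names had reads in 4 of the 10 libraries with either, and SUM_1 held 12 reads of miR-8986a and 0 of miR-8986b. The 2 names therefore did not appear in a fixed ratio across libraries.

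MiR-9021 was the only member with a read in every library of a season. It had 18.3, 22.6, 22.3 and 106 CPM in FOV_1 to FOV_4, and 0 CPM in all 4 SAN libraries. In SUM_1 to SUM_4 it had 89.2, 14.8, 0 and 31.6 CPM, and in SOV it had 53.7 CPM in SOV_2 only. In FOV_1, FOV_2 and FOV_3 the value stood for 1 read each, and FOV_4 held 11 of the 14 FOV reads.

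MiR-8917 was found mainly in summer. It had 0, 14.8, 35.6 and 71.2 CPM in SUM_1 to SUM_4, 19.0 CPM from 1 read in SAN_2, and 0 CPM in all other SAN, SOV and FOV libraries. These summer values came from 1, 1 and 9 reads, and SUM_1 without a read overlapped the other seasons.

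MiR-8908j had 179 CPM from 8 reads in FOV_3 and 0 in the other 15 libraries. It was the highest value of any member in any library and put the season mean at 44.6 ± 89.3 CPM (SD, n = 4), all of it from FOV_3.

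MiR-9177 had 54.5 CPM in SAN_3, 7.91 CPM in SUM_4, 22.6 CPM in FOV_2 and 38.6 CPM in FOV_4. MiR-9151 had 12.3 CPM in SAN_4, 107 CPM in SUM_3 and 22.6 CPM in FOV_2. MiR-9156 had 9.91 CPM in SUM_1 and 59.2 CPM in SUM_2. All 3 had no read in SOV, and each had at least 2 libraries at 0 in every season.

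MiR-8914 had 49.0 CPM in SAN_4, 17.9 CPM in SOV_2 and 9.65 CPM in FOV_4. MiR-8985 had 72.7 CPM from 4 reads in SAN_3 only. Both passed 10 CPM in SAN alone, and in each case 1 library made the whole of the season mean.

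The other 7 detected members stayed below 10 CPM in every season and had 16 reads in all. MiR-8941 had 4 reads, miR-8995 and miR-9159 had 3 each, and miR-8959 and miR-9055 had 2 each. MiR-8992 and miR-9018 had 1 read each, both in FOV_1, the library left out of the tests. None of the 7 has a sequence in the sources used here.

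**Figure D4:**
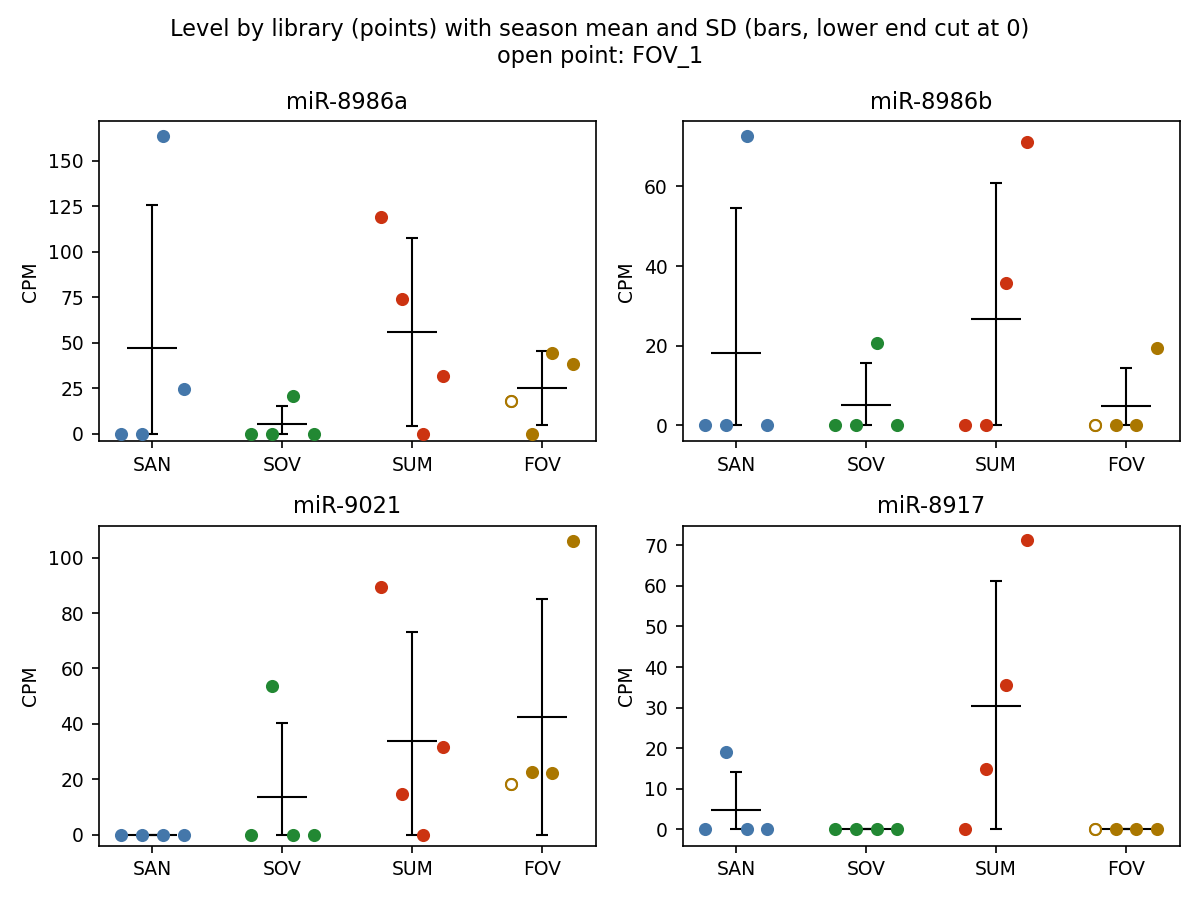
CPM of miR-8986a, miR-8986b, miR-9021 and miR-8917 in each library (points, 4 per season), with the season mean (line) and SD (bars, lower end at 0 where it would fall below). The open point is FOV_1, which is part of the mean. MiR-9021 is at 0 in all SAN libraries and between 18.3 and 106 CPM in FOV, and miR-8917 is at 0 in all SOV and FOV libraries.

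Limma was run on log2(CPM + 1) for the 6 pairs of seasons, over 15 libraries and the 282 miRNAs whose mean exceeded 10 CPM in some season. The 10 members in the test passed this filter through their highest season, so their fold changes (FC) are not a sample of the 293. A call needed a Benjamini-Hochberg adjusted p under 0.05 over the 282 and an FC of at least 2. Replicates are separate pools, but mares may recur between seasons, so p values measure the spread between these pools.

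No member was called in any of the 6 comparisons. Among all tested miRNAs the calls were 0 in SOV vs SAN (0%), 27 in SUM vs SAN (9.57%), 2 in FOV vs SAN (0.709%), 50 in SUM vs SOV (17.7%), 8 in FOV vs SOV (2.84%) and 10 in FOV vs SUM (3.55%). At an unadjusted limma p under 0.05 there were 0 of 10 members in SOV vs SAN, 2 in FOV vs SOV and 1 in each of the other 4 comparisons. The corresponding shares of all tested miRNAs were 11% in SOV vs SAN, 28.4% in SUM vs SAN, 14.9% in FOV vs SAN, 29.1% in SUM vs SOV, 23% in FOV vs SOV and 17.4% in FOV vs SUM.

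On the recovered reads, edgeR's quasi-likelihood test and DESeq2 also called 0 members in each comparison. Over all 282 tested miRNAs, edgeR called 0, 44, 0, 56, 11 and 10 in the order of comparisons given for limma. DESeq2 called 1, 58, 12, 58, 20 and 16. At an unadjusted p under 0.05 edgeR gave 0 members in SOV vs SAN and FOV vs SOV, 1 in SUM vs SAN and 2 in each of the other 3 comparisons, and DESeq2 gave 0 throughout. In the same order, edgeR gave 22, 96, 51, 90, 52 and 57 of all 282 at this limit. For DESeq2 the numbers were 17, 88, 46, 89, 55 and 43. DESeq2 left the adjusted p of all 10 members unset in 4 comparisons, and that of 4 members in SUM vs SOV. A p that misses the limit does not show that levels were equal.

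Whether libraries overlapped between seasons could not be put to a fair test in the members. All of them had a library at 0 in every season, except miR-9021 in FOV. With a 0 in both seasons the libraries overlap whatever the level in the rest. A lack of overlap was therefore possible only for miR-9021 in comparisons with FOV, and the shares below draw no contrast with other miRNAs. In FOV vs SAN a lack of overlap held for 1 of 10 members, miR-9021, beside 12.4% of all tested miRNAs. In the other comparisons it held for 0 of 10, beside 2.13% in SOV vs SAN, 17% in SUM vs SAN, 21.6% in SUM vs SOV, 18.8% in FOV vs SOV and 15.6% in FOV vs SUM.

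For miR-9021, the fitted log2 FC in FOV vs SAN was 5.28 (SE 1.69), with a limma adjusted p of 0.174. Since SAN was at 0, the pooled CPM gives only a bound, with 3 reads over the SAN libraries as the limit. Here and below, bounds take the CPM of the higher season as measured, without its counting error, and would be lower with it. The bound put FOV at least 5.0-fold above SAN. FOV_4 held 11 of the 13 FOV reads behind this bound, and without it 2 reads remained and gave no bound. In SUM vs SAN the log2 FC was 3.88 (SE 1.56, limma adjusted p 0.113), and the bound was at least 3.21-fold higher in SUM, or at least 1.67-fold without SUM_1. In FOV vs SOV the pooled ratio was 4.26 (95% interval 1.17 to 23.3 from counting), with a log2 FC of 3.84 (SE 1.69) and a limma adjusted p of 0.191, and without FOV_4 the ratio was 1.42 (0.118 to 12.4).

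In edgeR the lowest adjusted p of a member was 0.0644, for miR-9021 in SUM vs SAN. In the limma fit miR-8917 came closest to a call. It averaged 30.4 ± 30.9 CPM in SUM and 0 in SOV (SD, n = 4 each), with a log2 FC of 3.84 (SE 1.32) and a limma adjusted p of 0.0520 in SUM vs SOV, which missed the limit. In FOV vs SUM the log2 FC was -3.84 (SE 1.42, limma adjusted p 0.162). The pooled CPM bounds were at least 2.15-fold higher in SUM than in SOV and at least 2.19-fold lower in FOV than in SUM, and without SUM_4, which held 9 of the 11 SUM reads, neither bound could be given. The call in SUM vs SOV was made in 5 of 25 alternative settings, and without SUM_1, the summer library without a read, the limma adjusted p was 0.0124 in SUM vs SOV and 0.0416 in FOV vs SUM.

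MiR-8986a had the widest spread. In SUM vs SOV its pooled ratio was 12.3 (95% interval 1.98 to 509 from counting), while the log2 FC was 3.43 (SE 2.00) with a limma adjusted p of 0.252. In SOV vs SAN its pooled ratio was 0.107 (0.00248 to 0.734) and its log2 FC -1.90 (SE 2.00, limma adjusted p 0.790). Without SUM_1 the ratio in SUM vs SOV was 7.67 (1.06 to 336), and without SAN_3 that in SOV vs SAN was 0.442 (0.00749 to 8.48). The counting intervals leave out the spread between pools, which limma takes in.

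For miR-8908j the pooled CPM was at least 3.08-fold higher in FOV than in SAN, at least 2.62-fold higher than in SOV and at least 4.47-fold higher than in SUM. All of this came from FOV_3, without which no read remained, and the limma adjusted p was 0.365 against SAN, 0.270 against SOV and 0.356 against SUM. For miR-9177 in FOV vs SOV the log2 FC was 3.29 (SE 1.56, limma adjusted p 0.216).

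Many fitted differences rested on a season without a read, as for 5 of 10 members in SOV vs SAN and 5 of 10 in SUM vs SOV. Of the 10 members, 7 had a negative and 1 a positive log2 FC in SOV vs SAN, with a median of -0.69 against -0.22 over all tested miRNAs. In SUM vs SOV 7 were positive and 1 negative, with a median of 1.71 against 0.51 over all. Members at 0 in a season were then set to their bound, or to no change where 3 reads gave none. Both member medians became 0, which this rule fixed, since it put most members at no change. The fitted medians kept their sign but moved in size with the pseudocount. In SOV vs SAN the median was -0.93 at 0.25 CPM and -0.23 at 20 CPM, and in SUM vs SOV 2.21 and 0.65. For the same 2 comparisons edgeR gave -1.46 and 1.74, and DESeq2 -0.51 and 1.36.

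In the other comparisons the fitted median of the members was 1.02 in SUM vs SAN, 0.29 in FOV vs SAN, 0.93 in FOV vs SOV and -0.08 in FOV vs SUM, against 0.14, 0.43, 0.60 and 0.14 over all tested miRNAs. With the bounds the member medians were 0.48, 0.29, 0.21 and 0. Median-of-ratios scaling moved the median of all tested miRNAs to 0.00 in SOV vs SAN, 0.33 in FOV vs SAN, 0.21 in SUM vs SOV, 0.25 in FOV vs SOV and 0.02 in FOV vs SUM, and under this scaling the fitted member medians kept their sign. Under other settings the member median in FOV vs SAN turned to -0.34 in edgeR, -0.37 in DESeq2, -0.0035 at a pseudocount of 20 CPM, -0.41 without SAN_1 and -0.13 without FOV_4. In FOV vs SUM it turned to 0.49 without SAN_3 and 0.43 without FOV_2, so neither median has a stable direction.

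**Figure D5:**
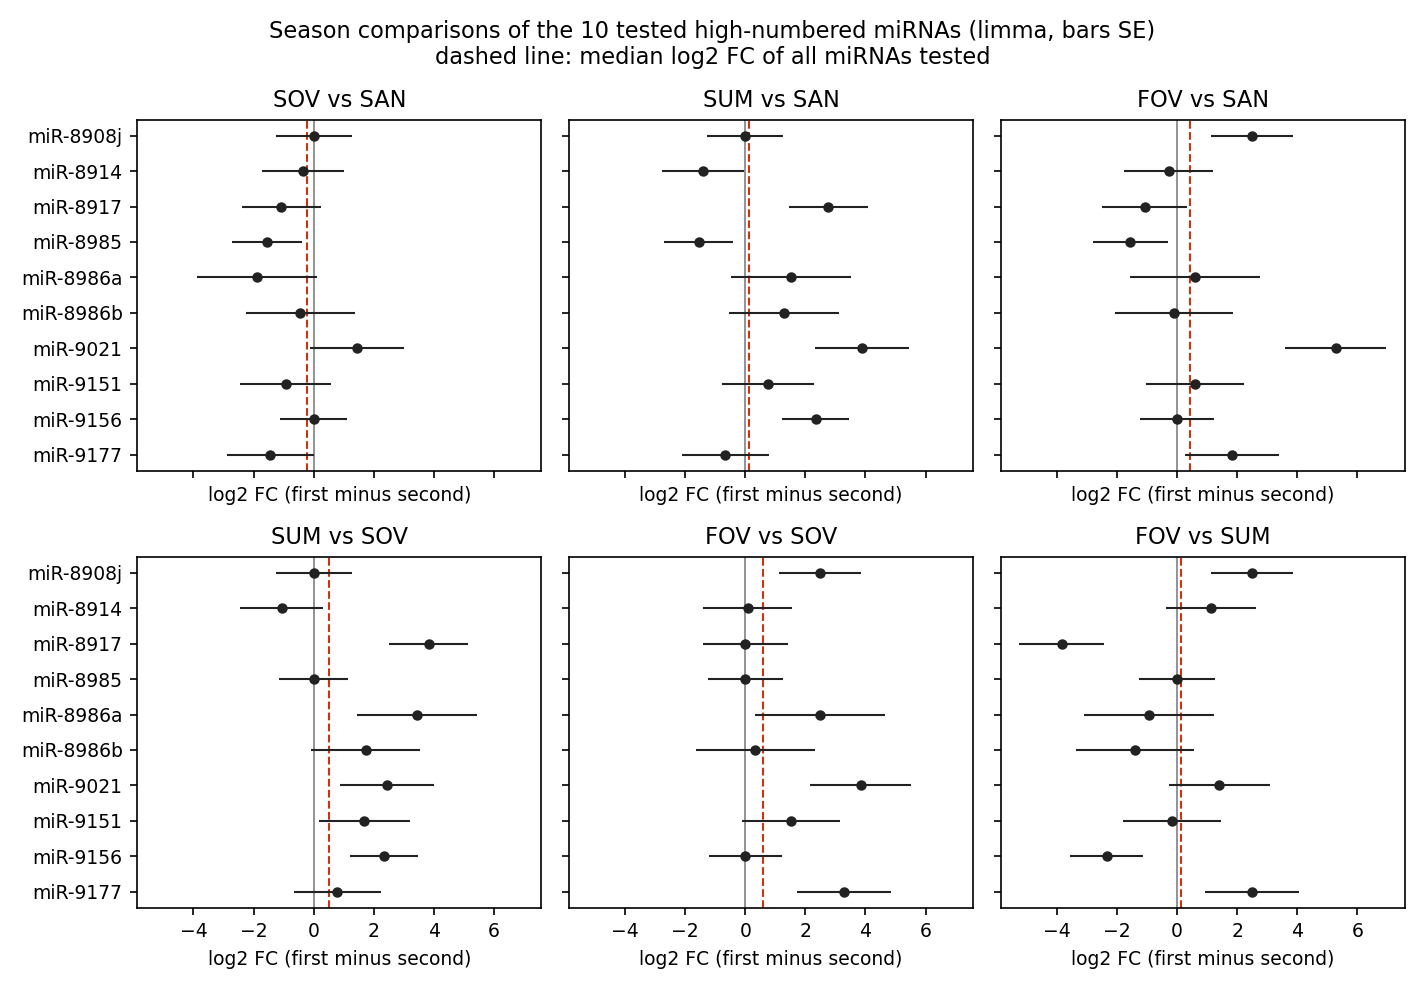
Fitted log2 FC of the 10 tested high-numbered miRNAs in the 6 season comparisons (season named first minus the other), from limma on log2(CPM + 1) over 15 libraries, with bars of 1 SE. The dashed line is the median of all 282 tested miRNAs. The farthest points are miR-9021 in FOV vs SAN at 5.28 and miR-8917 at 3.84 in SUM vs SOV and -3.84 in FOV vs SUM, and no point was called.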

How the data were processed

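The authors deposited a signal, TMM-adjusted CPM, which their methods describe as computed in CLC Genomics Workbench 21. Reads were trimmed (Q-score of 30, at most 2 ambiguous bases, at least 15 bases) and annotated against miRBase 22 and EquCab3.0. The submitters' processing notes name other tools, DESeq2, Bowtie2 2.2.2 and bcl2fastq, and it was not settled which account applies. In edgeR, TMM gave the same factors, to a largest relative gap of 3.2e-12. Dividing by the value of 1 read gave whole reads for 100% of values within 1e-06. Libraries differed beyond sampling noise in every pair (chi-square of at least 5.33 per degree of freedom).

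Counts of detected and expressed members (a season mean above 10 CPM) used 16 libraries. Depth ran from 27131 to 112146 reads, and 3 reads served as the upper limit that a count of 0 allows. Thinned counts are expected values for 27131 reads. The tests used limma 3.58.1 with an intensity trend in R 4.3.3, in 1 model of 4 seasons over 15 libraries, two-sided, with a pseudocount of 1 CPM. Alternatives were FOV_1 kept, other pseudocounts, filters and scalings, a replicate block, no fold limit, edgeR 4.0.16 and DESeq2 1.42.0 on the recovered reads, and each library left out. Leaving libraries out of the read shares and pooled ratios was added after seeing the data. The limma, edgeR and DESeq2 fits were tested on simulated data, with differences set at higher levels than those of the members. Sequence distances and figures used Python 3.11.15 and matplotlib 3.10.9. Intervals used scipy 1.17.1.

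Members named in the text are those above 10 CPM in a season, those called in a comparison, miR-9021, miR-8914 and miR-8985, and letter relatives with a read. Other members were named as values just below 10 CPM or to account for every detected member. The members and lists were chosen with earlier results of these data known.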

Additional observations from a re-analysis of the deposited data

Results flagged for a closer look

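Dixon's measure, the gap as a share of the range, was applied within seasons of 4 libraries to 29 groups. A group was a named member with reads, or the summed member signal, in a season. In 19 of the 29, all of them named members, 1 library lay far from the others. In 16 of the 19 that library alone had reads, and 3 libraries at 0 beside 1 above it give the highest possible measure by construction, even for 1 read. The usual rate of chance, about 1 in 20 groups, does not apply to such counts, so these 16 say only in which library a member was seen.

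From 1 library with reads, the values were 179 CPM for miR-8908j in FOV_3, and 49.0 CPM in SAN_4, 17.9 CPM in SOV_2 and 9.65 CPM in FOV_4 for miR-8914. MiR-8917 had 19.0 CPM in SAN_2, miR-8985 had 72.7 CPM in SAN_3, and miR-8986a had 20.8 CPM in SOV_3. MiR-8986b had 72.7 CPM in SAN_3, 20.8 CPM in SOV_3 and 19.3 CPM in FOV_4. MiR-9021 had 53.7 CPM in SOV_2, and miR-9151 had 12.3 CPM in SAN_4, 107 CPM in SUM_3 and 22.6 CPM in FOV_2. MiR-9177 had 54.5 CPM in SAN_3 and 7.91 CPM in SUM_4.

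In the other 3 cases more than 1 library had reads. MiR-8986a had 164 CPM in SAN_3 beside 24.5 CPM in SAN_4, miR-9021 had 106 CPM in FOV_4 beside 18.3 to 22.6 CPM in the other FOV libraries, and miR-9156 had 59.2 CPM in SUM_2 beside 9.91 CPM in SUM_1. SAN_3 stood high in 4 members, and it held 20 of the 33 member reads of SAN.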

How the results depend on the processing

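The count of members called in SUM vs SOV was 1 (miR-8917) with FOV_1 kept (limma adjusted p 0.0437), without a filter (0.0497) and with median-of-ratios scaling (0.0497), and 0 to 1 with 1 library left out. The count was 1 without SAN_2 (0.0291) and without SUM_1 (0.0124), and over all alternatives the adjusted p of miR-8917 was 0.0124 to 0.593. In FOV vs SUM the count was 0 to 1 with 1 library left out, with the call made without SUM_1. No member passed a filter of 100 CPM, so that setting gave no value. Same-numbered libraries did not deviate together (correlations of -0.27 to 0.27 for the same number in 2 seasons). Differently numbered libraries were not set beside them, so whether same-numbered pools shared mares cannot be told. With a replicate block 0 members were called in each comparison. Calls over all tested miRNAs, 0, 27, 2, 50, 8 and 10 in the comparisons SOV vs SAN, SUM vs SAN, FOV vs SAN, SUM vs SOV, FOV vs SOV and FOV vs SUM, ran over all alternatives from 0 to 5, 10 to 58, 0 to 12, 32 to 58, 3 to 20 and 4 to 19, and with the block were 0, 21, 2, 50, 6 and 7.

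Members above 10 CPM in SAN numbered 1 at a limit of 20 CPM, 0 where every library had to pass, and 2 to 6 with 1 library left out, the 2 without SAN_3. In SOV they numbered 3 at 5 CPM, 0 at 20 CPM, 0 where every library had to pass, and 0 to 1 with 1 library left out, the 0 without SOV_2. Where every library had to pass, SUM had 0 and FOV had 1, miR-9021. With a read asked for in at least 2 libraries, 10 members were detected.

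Of the 60 fitted log2 FC, 12 changed sign under some setting, in 39 of 1470 values, of which 26 left out 1 library. None of the 36 fitted differences over 1 in size did so. A fall to 0 was not counted as a change of sign, as for miR-8917 in SOV vs SAN, from -1.08 to 0 without SAN_2. A member that no longer passed the filter, such as miR-8908j without FOV_3, gave no value. The count therefore does not show that these directions are stable. For miR-8914 in FOV vs SOV the log2 FC was -0.21 with FOV_1 kept, -0.032 and -0.041 at pseudocounts of 5 and 20 CPM, -0.20 with the replicate block, -0.14 in edgeR and -0.50 in DESeq2. For miR-8986a in FOV vs SAN it was -0.0071 at a pseudocount of 20 CPM, -0.67 in edgeR and -0.74 in DESeq2. For miR-8986b it was 0.049 at a pseudocount of 0.25 CPM in FOV vs SAN, and in FOV vs SOV -0.025 with FOV_1 kept and -0.27 with the replicate block. For miR-9177 in SUM vs SOV it was -0.17 in DESeq2. With 1 library left out, miR-8914 ran from -1.41 to 0.0023 in SOV vs SAN, -1.41 to 0.30 in FOV vs SAN and -1.06 to 1.14 in FOV vs SOV. MiR-8986a ran from -0.41 to 2.40 in FOV vs SAN and -2.45 to 0.87 in FOV vs SUM, and miR-8986b from -1.55 to 1.11 in SOV vs SAN, -1.55 to 1.45 in FOV vs SAN and -1.11 to 1.45 in FOV vs SOV. MiR-9151 ran from -0.93 to 1.52 in FOV vs SAN and -1.69 to 0.59 in FOV vs SUM, and miR-9177 from -1.45 to 0.79 in SUM vs SAN. The cause was not tested. Every value above 0 of a member in a library stood for 1 to 12 reads, so depth limits all of these.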
